A study of Homo sapiens with 8 samples.

Results

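M3 and M2 are neighbouring lines of a breast cancer progression series that starts from MCF10A, a spontaneously immortalised and non-tumorigenic human mammary epithelial line called M1. M2 (MCF10AT1k.cl2) carries an activated HRAS transgene and was recovered from a xenograft. M3 (MCF10Ca1h) and M4 (MCF10CA1a.cl1) came from carcinomas that M2 xenografts occasionally formed, so M3 cells hold the same transgene as M2 cells. Each is a single established line, and the comparison of M3 with M2 asks which coding genes differ between a line that forms premalignant lesions and a line that forms low-grade carcinomas. It used 4 of the 8 libraries, 2 of M2 and 2 of M3, chosen by the cell line named in the sample labels. All lines were grown for 8 days as acini on Matrigel, in medium with 2% horse serum, hydrocortisone, cholera toxin, insulin and 2.5% Matrigel. The medium of M2 held 10 ng/ml EGF and that of M3 held none, so the effect of the line and that of EGF cannot be told apart in any value below.

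EGF and its relatives bind receptors of the ERBB family and act through RAS and the kinase ERK, which drives growth and migration of epithelial cells. Mammary epithelium has a basal layer, which rests on laminin-332 through hemidesmosomes, and a luminal layer, which faces the duct. Basal-like breast cancers keep many genes of the basal layer. Genes of an imprinted region are read from the copy of one parent only.

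The 2 M2 libraries held 102160562 and 69669945 counts and the 2 M3 libraries 87747932 and 86382384. Of 16848 coding genes with a count in any of the 8 libraries, 14088 passed edgeR's filter on low counts and were tested, together with 4343 genes of other or unlisted class. The replicates of the lines were not equally close. The coefficient of variation between replicates was 0.0580 in M2 and 0.307 in M3, and the chi-square per degree of freedom between replicates, which is near 1 when one library is sampled again, was 6.95 in M2 and 361 in M3. The study calls its replicates biological without further detail, and p-values measure the spread between these samples only. Calls were therefore repeated with the M2 libraries summed to 1 library. An expression table published with the study places 1 M2 and 1 M1 library the other way round from the labels. In the counts, the library labelled M2 replicate 1 was nearest to M2 replicate 2 (chi-square per degree of freedom 6.95) and far from M1 replicate 1 (469.8). M1 replicate 2 lay nearer to M1 replicate 1 (283.1) than to M2 replicate 2 (440.6). The labels were used, and calls were also made with the other assignment.

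A gene was called when edgeR's quasi-likelihood test gave a Benjamini-Hochberg adjusted p under 0.05 over all 18431 genes tested and the log2 fold change exceeded 1 in size. SE is the standard error of that log2 fold change. Of the 14088 coding genes, 694 (4.93%) were called, 503 higher in M3 (3.57%) and 191 lower (1.36%). The shares of 3.57% and 1.36% are the background for every count of called list members below. The M2 and M3 libraries did not overlap for any of the 694, nor for 8750 of all coding genes tested (62.1%), of which 4569 (32.4%) had both M3 libraries above M2 and 4181 (29.7%) below. The median log2 fold change was 2.24 among genes called higher and -2.59 among those called lower, against 0.01 over all coding genes tested. A rule without a test, a ratio of M3 to M2 above 2 or below its inverse in both replicates after adding 1 CPM (counts scaled to a common library total), gave 460 genes higher and 215 lower. With the M2 libraries summed, 43 higher and 31 lower genes were called, all among the 694, and with the other assignment 131 and 66. Both alternatives called 58 of the 694, 31 higher and 27 lower. These 58 are called the stable genes below, a set chosen by these alternatives and not independent of them. By the labels, the other assignment mixes M1 and M2 libraries. A gene that differs between M1 and M2 can lose its call there for that reason alone.

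**Figure D1:**
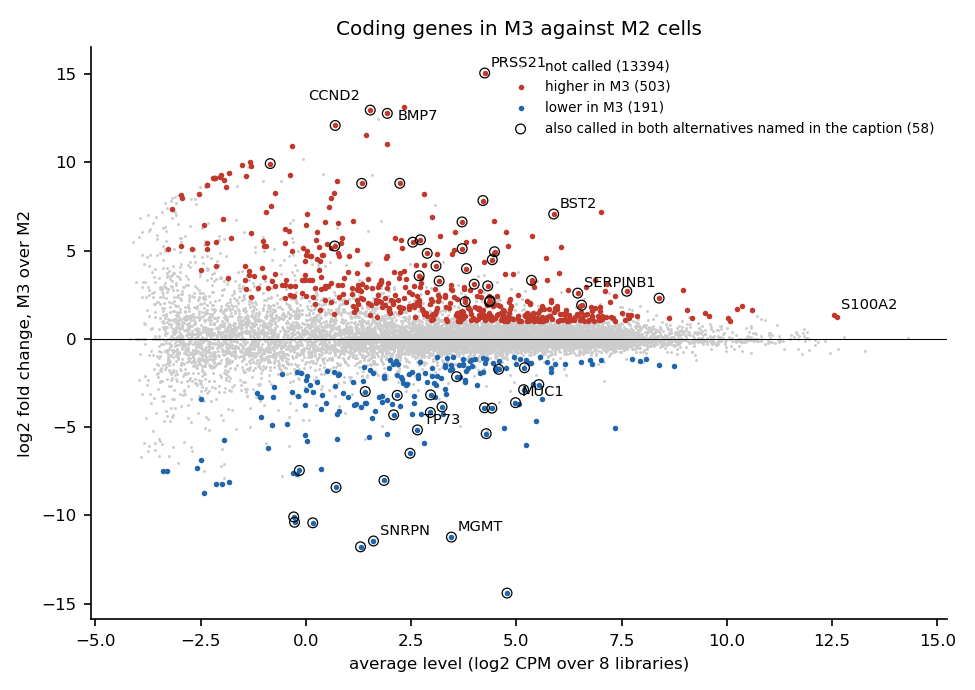
Log2 fold change of M3 over M2 (vertical axis) against average level in log2 CPM over the 8 libraries (horizontal axis) for the 14088 coding genes tested. Red points are the 503 genes called higher, blue points the 191 called lower, and open circles the 58 genes also called with the M2 libraries summed and with the other library assignment. The largest changes sit at low to middle levels, and the abundant gene S100A2 lies between 1 and 2 on the log2 scale.

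The largest gains were genes with no count, or 1 count, in M2. PRSS21 (ENSG00000007038, GRCh37 chr16:2867181-2876305), a serine protease anchored to the membrane and best known from testis, was at 0 and 0 CPM in M2 and 56.4 and 42.0 CPM in M3. It was at least 1365-fold higher in M3 when 3 counts per library stand for the M2 level (adjusted p 0.000437). CCND2, the G1 cyclin D2, had 0 and 0 CPM in M2 and 13.6 and 9.37 CPM in M3 and was at 0 in all M1 and M4 libraries too, so its reads came from M3 alone. Its difference from M2 was at least 318-fold (adjusted p 0.00400). BMP7, a secreted ligand of the BMP family, was at 0 and 0 CPM in M2 and 8.17 and 12 CPM in M3, at least 279.7-fold higher (adjusted p 0.00156), and at 3.50 and 6.64 CPM in M4. LRP1B, a large receptor of the LDL receptor family, rose from 0 in both M2 libraries to 3.64 and 8.91 CPM, with M4 at 0.132 and 0.102. ISL2, a homeobox factor of motor neurons, reached 1.31 and 1.49 CPM from 0. All of these are stable genes. RNF212, a meiotic recombination factor, also went from 0 to 14.3 and 11.7 CPM, but its call was lost with the M2 libraries summed and with the other assignment. ZNF605, S100B, SLAIN1 and CRISPLD1 completed the 10 largest gains, with fitted log2 fold changes from 9.84 to 11.56, and were not called with the M2 libraries summed.

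The largest losses included a DNA repair gene, an imprinted locus and a run of zinc finger genes. MGMT (ENSG00000170430, GRCh37 chr10:131265454-131569247) encodes the enzyme that removes alkyl groups from guanine. It was at 17.7 and 18 CPM in M2 and 0 and 0.0115 CPM in M3, which is 2961-fold (95% counting interval 531 to 116982) lower in M3, an interval that covers counting error only. In M1 it was at 16.6 and 17.9 CPM and in M4 at 8.76 and 8.72, so M3 was the line without it. SNRPN (GRCh37 chr15:25068784-25223870), a splicing protein gene transcribed from the paternal copy, was at 4.27 and 3.75 CPM in M2 and 0 and 0 CPM in M3 and at 4.47 and 3.19 CPM in M4. The locus ENSG00000214265 (GRCh37 chr15:25200181-25245423), which overlaps SNRPN on the same chromosome and has no symbol in the annotation used, was at 30.8 and 31.4 CPM in M2 and 0 and 0 CPM in M3 and at 33.2 and 29.4 CPM in M4. It was at least 859-fold lower in M3, and reads may be divided between it and SNRPN. SNHG14, the long RNA of the same imprinted region and not a coding gene, was at 19.3 and 17.8 CPM in M2 and 0.0126 and 0.0689 CPM in M3 (log2 fold change -8.74, SE 0.44, adjusted p 0.000361). All 4 were called in M3 against M2 with the M2 libraries summed and with the other assignment. The first 3 were present in every M1 and M4 library.

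The plot of these genes by library shows how M4, the other carcinoma line, compares. PRSS21, BMP7 and BST2 were also high in M4, and ZNF44 and MUC1 were also low there, while CCND2, MGMT and SNRPN set M3 apart from the other 3 lines.

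**Figure D2:**
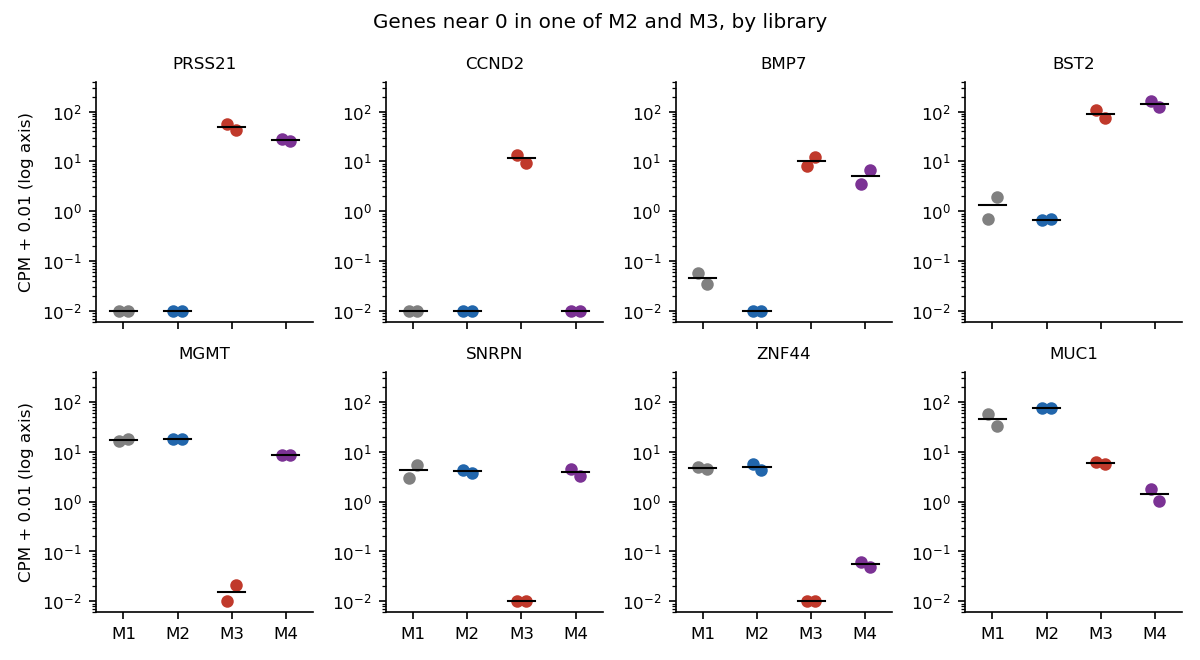
Levels in CPM plus 0.01, on a log axis, of 8 genes near 0 or low in M2 or M3. Points are the 2 libraries of each line and bars are line means. CCND2 lies at the floor in every library but those of M3, where it was at 13.6 and 9.37 CPM, and MGMT and SNRPN fall to the floor in M3 alone.

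RefSeq promoter windows, from 250 bases before to 50 bases after the start of transcription (RefSeq, GRCh38.p14), are shown for 3 genes that had no or 1 count in each library of one line and at least 309 in each library of the other. CpG sites are where promoters can be methylated, and methylation was not analysed here. CpG sites are in capitals in the windows of MGMT, PRSS21 and ZNF44, genes chosen after their values were seen.
MGMT, GRCh38.p14 chr10:129466991-129467290, plus strand: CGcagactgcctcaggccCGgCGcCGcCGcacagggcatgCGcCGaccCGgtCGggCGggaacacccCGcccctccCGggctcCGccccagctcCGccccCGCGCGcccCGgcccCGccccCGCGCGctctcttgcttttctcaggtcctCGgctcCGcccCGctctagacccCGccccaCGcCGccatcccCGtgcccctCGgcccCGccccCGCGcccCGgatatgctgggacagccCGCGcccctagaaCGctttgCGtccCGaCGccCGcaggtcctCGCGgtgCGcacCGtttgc
PRSS21, GRCh38.p14 chr16:2816987-2817286, plus strand: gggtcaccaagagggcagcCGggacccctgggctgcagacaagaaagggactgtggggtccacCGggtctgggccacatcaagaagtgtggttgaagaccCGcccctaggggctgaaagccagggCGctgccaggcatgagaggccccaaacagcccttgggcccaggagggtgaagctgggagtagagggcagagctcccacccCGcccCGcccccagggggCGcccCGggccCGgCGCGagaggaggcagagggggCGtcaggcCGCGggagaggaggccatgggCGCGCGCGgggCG
ZNF44, GRCh38.p14 chr19:12294834-12295133, minus strand: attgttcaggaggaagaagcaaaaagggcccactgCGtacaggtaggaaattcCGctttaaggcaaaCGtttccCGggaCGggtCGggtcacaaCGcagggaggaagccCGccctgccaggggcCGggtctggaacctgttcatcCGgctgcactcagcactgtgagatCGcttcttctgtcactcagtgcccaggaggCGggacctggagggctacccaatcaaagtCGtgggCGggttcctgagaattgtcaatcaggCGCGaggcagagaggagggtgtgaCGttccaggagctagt
The MGMT window held 45 CpG sites, that of PRSS21 19 and the ZNF44 window shown 17, against a median of 14 over all 35116 windows and 24 over the 16555 windows of tested coding genes. Windows of other genes among the largest losses held 2 (KLHL4), 3 (BTBD16), 9 (ZNF681), 13 (ZNF443), 15 to 30 (ZNF799), 2 to 18 (SNRPN) and 34 (ZNF606). Among the largest gains RNF212 had 34, ZNF605 24, ISL2 20 and SLAIN1 4 to 25. Windows of genes called lower had a median of 13 CpG sites, and 55.8% of them had more than 10, against 77.3% of the windows of tested coding genes. For genes called higher these values were 22 and 63.9%. Genes have from 1 to several windows each, so these shares are descriptions and not counts of independent genes. Windows were matched by symbol for 397 of the 503 genes called higher and 147 of the 191 called lower. Of 4 motifs searched on either strand, the sterol element (TCACNCCAC) was in 1.05% of the windows of genes called higher, 2.16% of those called lower, 1.08% of those of tested coding genes and 1.13% of all windows. In the same order, the AP-1 element (TGANTCA) was in 6.93%, 8.23%, 5.76% and 7.71%, the interferon element (GAAANNGAA) in 4.82%, 8.66%, 6.78% and 8.11%, and the cell cycle element (TTTGAA) in 11.9%, 13.9%, 10.95% and 15.2%. For AP-1 and the cell cycle element the genes called higher thus lay below all windows and above tested coding genes.

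Zinc finger genes of the KRAB family, transcriptional repressors that lie in clusters on chromosome 19, included several of the largest losses. ZNF44 was at 5.71 and 4.39 CPM in M2 and 0 and 0 CPM in M3, and its neighbours ZNF443 and ZNF799 fell from 2.27 and 1.58 and from 1.64 and 1.48 CPM to 0 in both M3 libraries. ZNF606, near the other end of the chromosome, fell from 1.97 and 1.96 CPM to 0. All 4 were at or under 0.0769 CPM in every M4 library as well. ZNF681 (M3 0.0126 and 0 CPM against 1.17 and 1.45 in M2) kept its level in M4, at 1.00 and 1.27 CPM. Of 173 zinc finger genes tested on chromosome 19, 15 were called lower and 1 higher, with a median log2 fold change of -0.35. On the other chromosomes 3 of 217 were called in each direction, with a median of -0.12. In the cluster between 20 and 25 Mb all 13 genes tested were below M2, 4 of them called, with a median of -2.43. The median of the same 13 genes in M4 against M2 was -0.03. Between 11 and 13 Mb 6 of 15 were called lower. These intervals were chosen after their values were seen, and such genes share sequence, so the authors' read assignment among them is uncertain.

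Among ligands of the ERBB receptors, 4 of 10 tested were called higher in M3 and none lower, with a median log2 fold change of 1.04, against 3.57% of coding genes called higher. TGFA, transforming growth factor alpha, was at 23.3 and 21.0 CPM in M2 and 170.5 and 129 CPM in M3 (log2 fold change 2.76, SE 0.29, adjusted p 0.00368). EREG, epiregulin, was at 7.20 and 7.86 CPM in M2 and 47.8 and 87.6 CPM in M3 (log2 fold change 3.17, SE 0.29, adjusted p 0.00247). Both M3 libraries stood far above both M2 libraries for each. The neuregulins NRG1 (log2 fold change 2.41, SE 0.43, adjusted p 0.0204) and NRG2 (log2 fold change 3.03, SE 0.62, adjusted p 0.0347), which bind ERBB3 and ERBB4, rose from lower levels, NRG1 from 1.32 and 1.36 to 7.74 and 6.53 CPM. HBEGF (log2 fold change 1.15, SE 0.30, adjusted p 0.0662) and AREG (log2 fold change 0.93, SE 0.51, adjusted p 0.337) had positive values and were not called. The line with the higher ligand levels was the line grown without EGF. With the M2 libraries summed only EREG was called, and with the other assignment only TGFA, where NRG2 had a log2 fold change of 1.24 (adjusted p 0.416). M4, also grown without EGF, had 101 and 124 CPM of TGFA and 79.2 and 100.1 of EREG. NRG1 was at 21.7 and 9.47 CPM in M4 and NRG2 at 0.555 and 0.551. M1, grown with EGF as M2 was, had 21.4 and 12.1 CPM of TGFA and 0.749 and 0.768 of EREG. NRG1 was at 0.701 and 1.13 CPM in M1 and NRG2 at 0.882 and 2.61.

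Of 8 ERBB receptors and inhibitors tested, none was called higher and 1 lower. EGFR, the receptor of EGF, was at 223 and 220.0 CPM in M2 and 318 and 248 CPM in M3 (log2 fold change 0.35, SE 0.17, adjusted p 0.262). ERBB3, a receptor that signals through its partners, was the called member, at 29.9 and 30.2 CPM in M2 and 10.3 and 12 CPM in M3 (log2 fold change -1.43, SE 0.27, adjusted p 0.0256). HRAS, whose reads can come from the cell's own gene and from the transgene, was at 159.8 and 154 CPM in M2 and 269 and 327 CPM in M3 (log2 fold change 0.93, SE 0.15, adjusted p 0.0144). Its adjusted p passed the threshold, while its log2 fold change stayed under 1. Among 15 RAS genes and regulators 2 were called, both higher (3.57% of all coding genes were), with a median of 0.71. RASGRP1, an activator of RAS known from lymphocytes, was at 0.147 and 0.227 CPM in M2 and 5.43 and 5.32 CPM in M3 (log2 fold change 4.85, SE 0.54, adjusted p 0.00400), and RASAL2, which promotes RAS inactivation, at 19.6 and 19.7 CPM in M2 and 34.8 and 43.7 CPM in M3 (log2 fold change 1.00, SE 0.16, adjusted p 0.0140). ERBB3, RASGRP1 and RASAL2 were called neither with the M2 libraries summed nor with the other assignment, and ERBB3 was not called without either M3 library.

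Genes that ERK switches on include its own feedback inhibitors. Of 18 tested, 3 were called higher (3.57% of all coding genes were) and none lower, the libraries of 15 lay entirely above those of M2 (32.4% of all coding genes did), and the median log2 fold change was 1.22. ETV5, an ETS factor induced by ERK, was at 26.0 and 27.2 CPM in M2 and 77.7 and 119 CPM in M3 (log2 fold change 1.88, SE 0.32, adjusted p 0.0184). DUSP5, a phosphatase that inactivates ERK in the nucleus, was at 8.5 and 8.32 CPM in M2 and 22.8 and 23 CPM in M3 (log2 fold change 1.44, SE 0.17, adjusted p 0.00463), and FOSL1, the AP-1 subunit FRA1, at 31.0 and 31.3 CPM in M2 and 76.2 and 86.6 CPM in M3 (log2 fold change 1.39, SE 0.19, adjusted p 0.00793). The values were close between M3 libraries for DUSP5 and FOSL1. DUSP6 (log2 fold change 1.61, SE 0.39, adjusted p 0.0592), SPRY4 (log2 fold change 1.42, SE 0.37, adjusted p 0.0700) and DUSP4 (log2 fold change 1.86, SE 0.53, adjusted p 0.0923) missed the threshold. EGR1, a fast-responding factor of the same pathway, had a log2 fold change of -0.90 with an SE of 0.71. With the other assignment ETV5 alone was called, and with the M2 libraries summed none was. Of 12 AP-1 and early response factors only FOSL1 was called, and their median was -0.01.

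**Figure D3:**
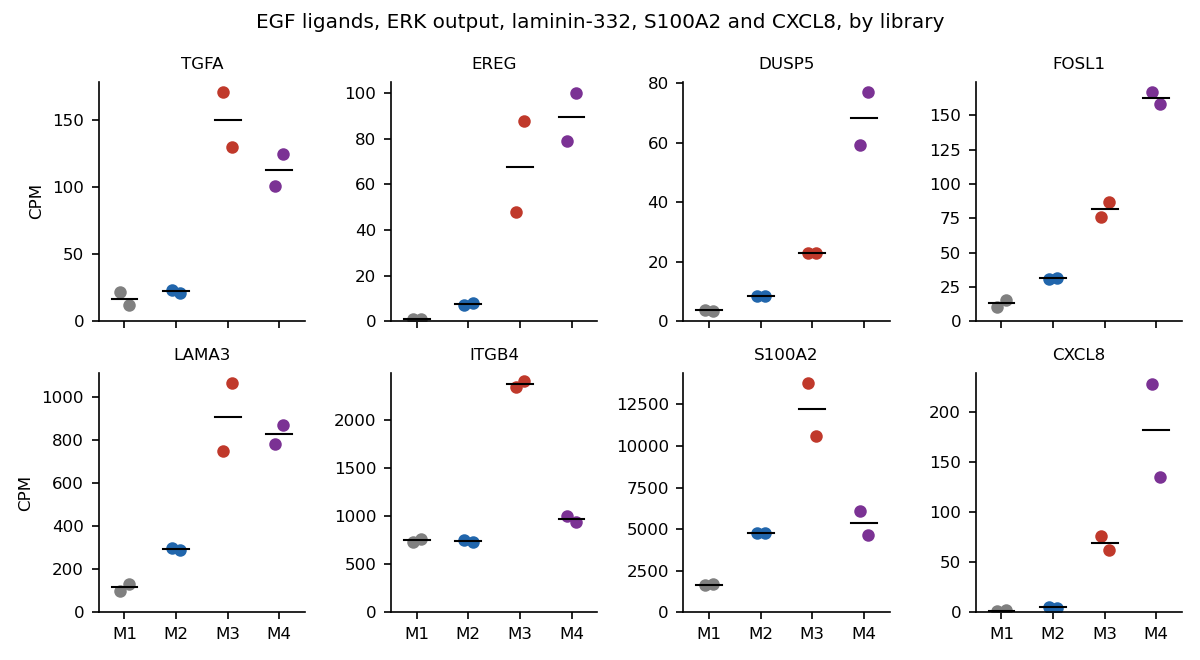
Levels in CPM (linear axes from 0) of 8 genes by line, with the 2 libraries as points and the line mean as a bar. M3 lies above M2 in both libraries for all 8, with TGFA at 170.5 and 129 CPM in M3 and 23.3 and 21.0 in M2, and ITGB4 and S100A2 are higher in M3 than in M4.

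Hemidesmosomes fix basal cells to the basement membrane. Of the 10 hemidesmosome and laminin-332 genes tested, 4 rose (against 3.57% of all coding genes called higher) and none was called lower, among them genes of laminin-332 and a subunit of the integrin that binds it. LAMA3, a laminin chain, was at 297 and 292 CPM in M2 and 748 and 1064 CPM in M3 (log2 fold change 1.62, SE 0.23, adjusted p 0.00866) and LAMB3 at 279.7 and 284 CPM in M2 and 758 and 807 CPM in M3 (log2 fold change 1.47, SE 0.25, adjusted p 0.0179). ITGB4, the beta 4 integrin subunit, was at 752 and 728 CPM in M2 and 2347 and 2409 CPM in M3 (log2 fold change 1.68, SE 0.15, adjusted p 0.00228). Its partner ITGA6 (log2 fold change 0.66, SE 0.29, adjusted p 0.231) was not called, nor were the plaque and transmembrane members DST (-0.89), PLEC (0.31) and COL17A1 (-0.15), given as log2 fold changes. The list's summed level was 5296 and 5129 CPM in M2 and 8665 and 10571 CPM in M3. ITGB4 was also called with the other assignment, and no member with the M2 libraries summed. ITGB4 in M4 was at 998 and 939.5 CPM.

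Of 19 integrin genes tested, 3 were called higher and 1 lower, against 3.57% and 1.36% of all coding genes. Of the 19, 15 had M3 libraries entirely above those of M2, as 32.4% of all coding genes did (median 0.87). Besides ITGB4, ITGB5 was at 103 and 103 CPM in M2 and 239.6 and 251 CPM in M3 (log2 fold change 1.25, SE 0.28, adjusted p 0.0422) and ITGA10, a collagen receptor subunit, at 3.37 and 3.27 CPM in M2 and 7.49 and 12.4 CPM in M3 (log2 fold change 1.58, SE 0.36, adjusted p 0.0460). ITGB7, a subunit of lymphocyte integrins, was lower at 1.68 and 1.86 CPM in M2 and 0.278 and 0.425 CPM in M3 (log2 fold change -2.33, SE 0.50, adjusted p 0.0407). In the plasminogen system, which degrades matrix at the cell surface, 2 of 7 were higher with a median of 1.25. PLAUR, the urokinase receptor, was at 23.6 and 24.2 CPM in M2 and 81.4 and 64.9 CPM in M3 (log2 fold change 1.61, SE 0.17, adjusted p 0.00392). ANXA2, annexin A2, which binds plasminogen with S100A10, was at 4875 and 4749 CPM in M2 and 12562 and 10338 CPM in M3 (log2 fold change 1.25, SE 0.20, adjusted p 0.0155). Urokinase itself, PLAU, had a log2 fold change of -0.40 and an adjusted p of 0.614. None of these was called under either alternative apart from ITGB4.

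Secreted matrix genes moved in both directions. Of 22 matrix glycoproteins 3 were called higher and none lower, against 3.57% and 1.36% of all coding genes. SPARC, a collagen-binding glycoprotein, was at 31.0 and 29.6 CPM in M2 and 253 and 359 CPM in M3 (log2 fold change 3.34, SE 0.65, adjusted p 0.0322), while M1 stood at 39.4 and 181 CPM and M4 stood at 19.9 and 14.4. THBS1, thrombospondin 1, was at 137 and 130.0 CPM in M2 and 596 and 1242 CPM in M3 (log2 fold change 2.79, SE 0.41, adjusted p 0.0109) and FBLN1, fibulin 1, at 34.4 and 30.9 CPM in M2 and 127 and 110 CPM in M3 (log2 fold change 1.86, SE 0.36, adjusted p 0.0302). Collagens were split, with 2 of 21 higher and 3 lower. COL8A1 rose (log2 fold change 2.44, SE 0.49, adjusted p 0.0330), and COL6A3 (log2 fold change -3.58, SE 0.74, adjusted p 0.0347) and the basement membrane pair COL4A5 (log2 fold change -1.19, SE 0.25, adjusted p 0.0356) and COL4A6 (log2 fold change -1.44, SE 0.21, adjusted p 0.0103) fell. Proteases and their inhibitors were split as well, with 2 of 18 called in each direction. TIMP1, an inhibitor of metalloproteinases, was at 679 and 660.1 CPM in M2 and 212 and 262 CPM in M3 (log2 fold change -1.50, SE 0.19, adjusted p 0.00633) and TIMP2 at 17 and 17.5 CPM in M2 and 39.8 and 37.4 CPM in M3 (log2 fold change 1.16, SE 0.14, adjusted p 0.00543). MMP13, a collagenase, fell from 4.02 and 4.29 to 0 and 0.0459 CPM, and MMP16, a membrane protease, rose from 0.216 and 0.142 to 2.75 and 5.06. Of these, MMP13 alone was called with the M2 libraries summed, but not with the other assignment (adjusted p 0.0987). That assignment kept THBS1, COL4A5, COL4A6 and TIMP2, and gave SPARC a log2 fold change of 1.54 (adjusted p 0.304) and TIMP1 one of -0.95 (adjusted p 0.437).

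Keratins and S100 proteins were among the largest absolute gains. RPKM here divides by the merged length of all annotated exons of a gene, which can exceed that of its transcripts. By this measure S100A2, KRT6B, PI3, ANXA2 and S100A16 had the 5 largest differences among genes called higher. S100A2, a calcium-binding protein of basal keratinocytes, was at 4802 and 4785 CPM in M2 and 13796 and 10622 CPM in M3 (log2 fold change 1.35, SE 0.22, adjusted p 0.0165). Among 15 S100 genes 4 were called higher and none lower, against 3.57% and 1.36% of all coding genes. Besides S100A2 they were S100A16 (log2 fold change 1.01, SE 0.17, adjusted p 0.0165), S100A1 (M2 0.923 and 1.35, M3 60.3 and 39.9 CPM) and S100B (M2 0.00982 and 0, M3 9.06 and 21.3 CPM). The last pair were near 0 in M4, with S100A1 at 1.36 and 0.615 CPM. Basal and stress-associated keratins had 3 of 9 members called higher, against the same 3.57%. KRT6B was at 849 and 849 CPM in M2 and 2616 and 2732 CPM in M3 (log2 fold change 1.66, SE 0.26, adjusted p 0.0135) and KRT14, the basal keratin, at 37.3 and 36.3 CPM in M2 and 99.7 and 91.1 CPM in M3 (log2 fold change 1.37, SE 0.31, adjusted p 0.0455). KRT75, a hair follicle keratin with under 100 counts in at least 1 M3 library, also rose (log2 fold change 3.03, SE 0.65, adjusted p 0.0403). KRT5, the partner of KRT14, was at 9179 and 9190 CPM in M2 and 7056 and 5365 CPM in M3 (log2 fold change -0.56, SE 0.23, adjusted p 0.206). PI3, the elastase inhibitor elafin of inflamed skin, was at 3.07 and 2.77 CPM in M2 and 448 and 411 CPM in M3 (log2 fold change 7.20, SE 0.67, adjusted p 0.00304). SPRR2D was the 1 called member of 20 cornified envelope genes (log2 fold change 5.02, SE 0.82, adjusted p 0.0182). Of the keratin, S100 and envelope genes called here, and PI3, none was called with the M2 libraries summed, and S100B and PI3 alone with the other assignment.

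Among inflammatory genes, 2 of 13 chemokines tested were called higher (3.57% of all coding genes were), and both attract neutrophils. CXCL8 was at 5.65 and 4.72 CPM in M2 and 76.0 and 61.9 CPM in M3 (log2 fold change 3.73, SE 0.34, adjusted p 0.00247) and CXCL1 at 11.3 and 10.8 CPM in M2 and 99.9 and 107 CPM in M3 (log2 fold change 3.23, SE 0.54, adjusted p 0.0193), the 2 called of 13 tested. Of 21 interleukin-1 family members and related cytokines 3 were called higher and 2 lower, against 3.57% and 1.36% of all coding genes. IL1B, interleukin-1 beta, was at 0.540 and 0.540 CPM in M2 and 13.7 and 8.85 CPM in M3 (log2 fold change 4.38, SE 0.57, adjusted p 0.00754), and LIF, a cytokine of the IL-6 family, at 5.21 and 5.32 CPM in M2 and 36.7 and 71.3 CPM in M3 (log2 fold change 3.36, SE 0.50, adjusted p 0.0138). IL1RAP, the co-receptor, also rose (log2 fold change 2.18, SE 0.48, adjusted p 0.0473). The receptor IL1R1 fell, at 55.5 and 55.7 CPM in M2 and 7.87 and 7.28 CPM in M3 (log2 fold change -2.88, SE 0.28, adjusted p 0.00301), and so did the alarmin IL33 (log2 fold change -4.45, SE 0.62, adjusted p 0.00865). IL1R1 is a stable gene. CXCL8 was also called with the M2 libraries summed, CXCL1, IL1B and LIF with the other assignment, and IL1RAP and IL33 under neither. SERPINB1, an inhibitor of neutrophil proteases and also a stable gene, was at 24 and 21.5 CPM in M2 and 124 and 151 CPM in M3 (log2 fold change 2.59, SE 0.18, adjusted p 0.000950).

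Of 33 interferon-stimulated genes tested, 2 were called higher and none lower, against 3.57% and 1.36% of all coding genes. Their median log2 fold change was -0.08. BST2, tetherin, which holds enveloped viruses at the cell surface, was at 0.648 and 0.697 CPM in M2 and 105 and 75.8 CPM in M3 (log2 fold change 7.07, SE 0.51, adjusted p 0.00131) and is a stable gene. OAS2 was at 0.206 and 0.199 CPM in M2 and 13.1 and 7.0 CPM in M3 (log2 fold change 5.62, SE 1.26, adjusted p 0.0485) and was called under neither alternative. ISG15 (-0.88), MX1 (-0.39) and IFIT1 (-0.08), widely used members of the group, had log2 fold changes with adjusted p from 0.584 to 0.980. The antiviral deaminases APOBEC3F (log2 fold change 8.81, SE 0.75, adjusted p 0.00185) and APOBEC3G (log2 fold change 4.85, SE 0.44, adjusted p 0.00231), outside this list, were among the stable genes that rose. The BST2 window holds the interferon element GAAANNGAA in overlapping copies, shown in capitals, the first starting 130 bases before the start of transcription.
BST2, GRCh38.p14 chr19:17405581-17405880, minus strand: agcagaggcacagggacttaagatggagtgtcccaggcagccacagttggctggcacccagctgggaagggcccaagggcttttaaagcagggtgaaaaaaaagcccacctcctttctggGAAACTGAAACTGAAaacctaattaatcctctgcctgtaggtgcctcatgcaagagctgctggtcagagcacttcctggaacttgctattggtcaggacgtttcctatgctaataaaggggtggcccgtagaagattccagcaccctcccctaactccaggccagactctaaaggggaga
This motif was in 25 of 33 windows of the list's genes and in 8.11% of all windows, while 2 of the 33 list genes tested were called. Antigen presentation by MHC class I had 0 of 15 members called by edgeR (median -0.24), where 7 had an unadjusted p under 0.05 and 1 was called by DESeq2, with B2M at 706 and 689.7 CPM in M2 and 647 and 583 CPM in M3. CIITA, the master activator of MHC class II, fell from 2.92 and 2.56 to 0.152 and 0.287 CPM (log2 fold change -3.63, SE 0.75, adjusted p 0.0347), a call lost under both alternatives, and class II had 1 of 10 called in each direction.

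Genes of luminal identity and epithelial barrier were called in both directions, beside 3.57% of all coding genes called higher and 1.36% called lower. MUC1, the apical mucin, was at 74.6 and 74.0 CPM in M2 and 6.35 and 5.80 CPM in M3 (log2 fold change -3.61, SE 0.34, adjusted p 0.00257) and is a stable gene. In its list of 10 CEACAM and mucin genes, CEACAM1 (log2 fold change 4.55, SE 0.84, adjusted p 0.0273) and CEACAM6 (log2 fold change 4.16, SE 0.55, adjusted p 0.00754), adhesion proteins of the cell surface, were higher, and neither was called under either alternative. GATA3, a luminal master factor, was at 42.9 and 44.3 CPM in M2 and 18 and 15.4 CPM in M3 (log2 fold change -1.38, SE 0.17, adjusted p 0.00651), and EHF, an epithelial ETS factor, at 71.0 and 71.8 CPM in M2 and 29.2 and 23.6 CPM in M3 (log2 fold change -1.44, SE 0.28, adjusted p 0.0309), the 2 called of 13 luminal factors, of which 6 had positive values (median -0.19). Simple-epithelium keratins, which mark luminal cells, summed to 2712 and 2639 CPM in M2 and 5066 and 3954 CPM in M3. None of the 7 tested was called by edgeR, 3 had an unadjusted p under 0.05 and 1 was called by DESeq2, 6 had positive values (median 0.76), and KRT7 was at 940.1 and 921 CPM in M2 and 2344 and 1585 CPM in M3. TP73, the p53 relative of ciliated and basal cells, was at 13.3 and 13.1 CPM in M2 and 0.265 and 0.471 CPM in M3 (log2 fold change -5.15, SE 0.65, adjusted p 0.00631), 1 of 12 squamous and basal factors. TP63, the basal master factor, had a log2 fold change of -0.57 and an adjusted p of 0.0969. KLK7, a skin protease, fell from 5.71 and 5.39 to 0.101 and 0.0230 CPM (log2 fold change -6.48, SE 0.71, adjusted p 0.00400). It was the 1 called of 10 kallikreins tested. All 14 kallikreins in the counts summed to 49.96 and 53.2 CPM in M2 and 112 and 214 CPM in M3. DSG1, a desmosomal cadherin, was the 1 called of 12 desmosome genes (log2 fold change -7.61, SE 1.01, adjusted p 0.0106), and the group's median was -0.37. DSG1 had under 100 counts in at least 1 M2 library. Of 26 epithelial adhesion genes tested, 2 were called higher, 2 lower and 22 not called, with a median of 0.14. The tight junction genes CLDN7 (log2 fold change 2.11, SE 0.25, adjusted p 0.00541) and OCLN (log2 fold change 2.38, SE 0.28, adjusted p 0.00509) rose. CLDN8 (log2 fold change -3.27, SE 0.51, adjusted p 0.0135) and GRHL2 fell. No member of this list was called under either alternative, and with the other assignment the log2 fold change was 0.18 for OCLN (adjusted p 0.95) and 1.24 for CLDN7 (adjusted p 0.316). TP73 and KLK7 are stable genes, EHF was also called with the other assignment, and GATA3 and DSG1 under neither alternative. E-cadherin, CDH1, was at 159 and 156 CPM in M2 and 126 and 148 CPM in M3 (log2 fold change -0.20, SE 0.15, adjusted p 0.473). Of 15 mesenchymal transition genes none was called by edgeR, 5 had an unadjusted p under 0.05 and 2 were called by DESeq2, and VIM was at 848 and 839 CPM in M2 and 1899 and 1100 CPM in M3 with an adjusted p of 0.578.

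Genes of other signalling pathways were called in both directions, beside 3.57% of all coding genes called higher and 1.36% called lower. Of 19 BMP pathway genes 3 were higher, BMP7 with BMP4 (log2 fold change 2.88, SE 0.48, adjusted p 0.0165) and the antagonist NOG (log2 fold change 2.34, SE 0.33, adjusted p 0.00866), and BMP5 was lower. Of 23 TGF-beta genes, INHBA, an activin subunit (log2 fold change 1.23, SE 0.22, adjusted p 0.0193), and LTBP2 (log2 fold change 1.66, SE 0.36, adjusted p 0.0431) were higher, and the ligand TGFB1 was lower at 94.2 and 96.0 CPM in M2 and 39.2 and 38.1 CPM in M3 (log2 fold change -1.30, SE 0.20, adjusted p 0.0129). A list of YAP and TEAD targets, which also holds pathway members such as YAP1, TEAD1 and WWTR1, had 3 of 16 higher and none lower. The 3 were NT5E, WWTR1 and PTPN14, so they are not all targets. NT5E, the ecto-nucleotidase CD73, was at 42.5 and 39.1 CPM in M2 and 318 and 212 CPM in M3 (log2 fold change 2.70, SE 0.27, adjusted p 0.00301). Under each alternative 1 list member was called higher. In the insulin and IGF group IRS1 fell (log2 fold change -2.60, SE 0.51, adjusted p 0.0310) and IRS2 rose (log2 fold change 2.39, SE 0.28, adjusted p 0.00497), and IGFBP2 went from 5.62 and 6.13 to 82.3 and 66.5 CPM. WNT genes had 2 of 29 higher and 3 lower, with WNT9A (log2 fold change 1.97, SE 0.35, adjusted p 0.0211) and WNT10A (log2 fold change -2.46, SE 0.33, adjusted p 0.00781) in opposite directions. None of 19 Notch genes was called by edgeR, and 6 had an unadjusted p under 0.05 and 3 were called by DESeq2. ALDH1A3, a retinaldehyde dehydrogenase used as a progenitor marker, was at 35.5 and 34.8 CPM in M2 and 164 and 222 CPM in M3 (log2 fold change 2.45, SE 0.23, adjusted p 0.00272). Among apoptosis regulators MCL1 (log2 fold change 1.16, SE 0.22, adjusted p 0.0281) and BCL2L1 (log2 fold change 1.35, SE 0.30, adjusted p 0.0431), both inhibitors of death, rose, and BMF, an activator, was at 9.57 and 9.65 CPM in M2 and 0.758 and 0.574 CPM in M3 (log2 fold change -3.85, SE 0.45, adjusted p 0.00497) and is a stable gene. PDCD4, a tumour suppressor that inhibits translation, was at 156 and 159 CPM in M2 and 78.3 and 56.6 CPM in M3 (log2 fold change -1.22, SE 0.26, adjusted p 0.0401). Besides BMP7 and BMF, NT5E and ALDH1A3 were also called with the M2 libraries summed and IRS2, IGFBP2, WNT9A and WNT10A with the other assignment, while BMP4, NOG, INHBA, LTBP2, TGFB1, IRS1, MCL1, BCL2L1 and PDCD4 were called under neither.

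None of 30 DNA replication genes was called by edgeR (median -0.09), and 7 had an unadjusted p under 0.05 and 0 were called by DESeq2. Of 30 mitosis genes none was called (median 0.26), and 8 had an unadjusted p under 0.05 and 0 were called by DESeq2. Of the 30 mitosis genes 18 had M3 libraries entirely above M2 and 1 entirely below, against 32.4% and 29.7% of all coding genes. Of the 30 DNA replication genes 6 lay entirely above and 13 entirely below. MKI67, the proliferation marker, was at 236 and 221 CPM in M2 and 212 and 292 CPM in M3, so its M3 libraries lay on either side of M2. Cholesterol synthesis had 1 of 25 genes called higher, HSD17B7 (log2 fold change 1.11, SE 0.17, adjusted p 0.0114), with a median of 0.38. Of the 25, 19 had M3 libraries entirely above M2 and 0 entirely below. The list's summed level was 3632 and 3605 CPM in M2 and 4319 and 4614 CPM in M3. In M4 that sum was 10602 and 12160 CPM. The glucose transporters SLC2A1, at 388 and 387 CPM in M2 and 168 and 187 CPM in M3 (log2 fold change -1.12, SE 0.14, adjusted p 0.00647), and SLC2A3 (log2 fold change -3.26, SE 0.71, adjusted p 0.0416) were lower, the 2 called of 24 glycolysis and hypoxia genes. The sum over that list was 24695 and 24156 CPM in M2 and 33613 and 18934 CPM in M3, with the M3 libraries on either side of M2, and cytosolic ribosomal proteins were split in the same way at 52148 and 50694 CPM in M2 and 64913 and 39019 CPM in M3. None of the 25 ribosomal protein genes was called by edgeR, and 0 had an unadjusted p under 0.05 and 0 were called by DESeq2. FTL, ferritin light chain, was at 544 and 548 CPM in M2 and 163 and 214 CPM in M3 (log2 fold change -1.53, SE 0.20, adjusted p 0.00754), and of 19 NRF2 and antioxidant genes 14 had M3 libraries entirely below M2, as 29.7% of all coding genes did. None of those 19 was called by edgeR, and 3 had an unadjusted p under 0.05 and 0 were called by DESeq2. The 13 mitochondrially encoded genes summed to 40461 and 39762 CPM in M2 and 25678 and 30314 CPM in M3, and 12 of them lay entirely below M2, against the same 29.7%. None was called by edgeR, and 7 had an unadjusted p under 0.05 and 0 were called by DESeq2. CD36, a fatty acid receptor, fell from 42.8 and 41.1 to 1.05 and 0.276 CPM (log2 fold change -6.00, SE 0.84, adjusted p 0.0107). FTL and CD36 were also called with the other assignment, HSD17B7, SLC2A1 and SLC2A3 under neither alternative, and none of the 5 with the M2 libraries summed.

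**Figure D4:**
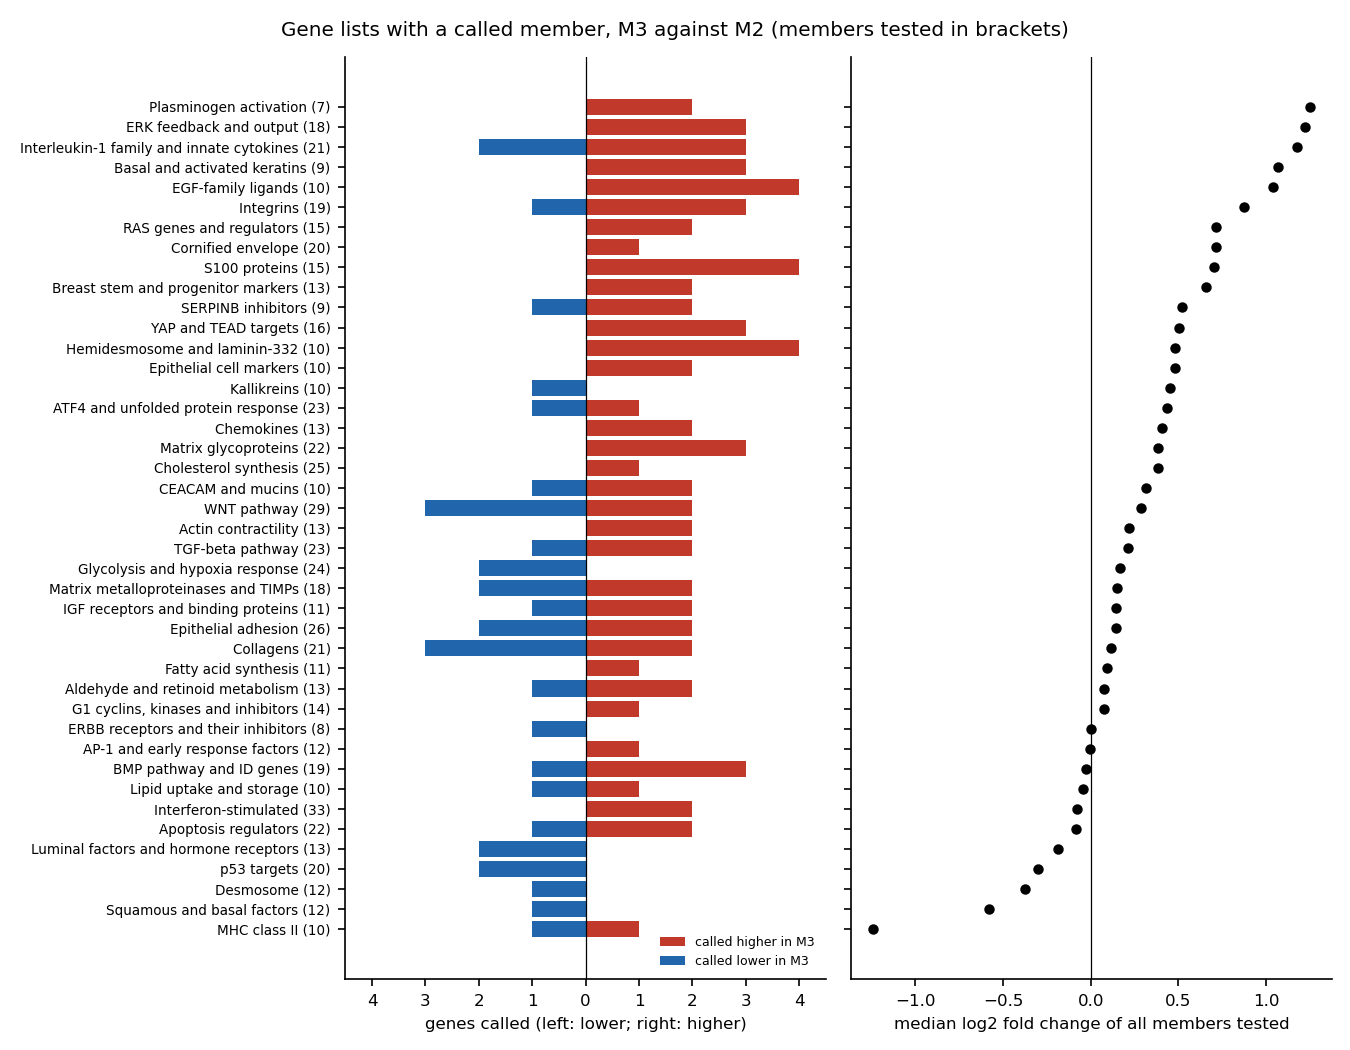
Gene lists with at least 7 members tested and at least 1 called, ordered by the median log2 fold change of all members tested (right panel). Bars on the left count members called lower (to the left of 0) and higher (to the right). No list has more than 4 members called in one direction, and EGF-family ligands, S100 proteins, and hemidesmosome and laminin-332 genes reach 4 higher with none lower.

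The libraries held epithelial cells by their markers. Of 10 epithelial markers 2 were called higher, KRT14 and LAMB3, and the list summed to 16200 and 16081 CPM in M2 and 15976 and 15416 CPM in M3. In bulk RNA fewer cells of a type and less RNA per cell cannot be told apart. The 8 fibroblast markers, of which 5 were tested, summed to 81.9 and 78.8 CPM in M2 and 51.9 and 25.1 CPM in M3. None was called by edgeR, 2 had an unadjusted p under 0.05 and 2 were called by DESeq2, and DCN, decorin, made most of the M2 sum, at 60.2 and 58.6 CPM in M2 and 1.01 and 2.11 CPM in M3 (log2 fold change -5.24, SE 1.32, adjusted p 0.0670). FAP was at 7.15 and 6.08 CPM in M2 and 41.7 and 9.06 CPM in M3. The 9 leukocyte markers (4 tested) summed to 16.5 and 15.9 CPM in M2 and 42.5 and 13.4 CPM in M3. The 6 adipocyte markers (2 tested) summed to 12.1 and 13.2 CPM in M2 and 9.25 and 11.7 CPM in M3. Neither list had a gene called by edgeR. Of the leukocyte markers 1 had an unadjusted p under 0.05 and 1 was called by DESeq2, and of the adipocyte markers 0 had an unadjusted p under 0.05 and 0 were called by DESeq2. The 6 endothelial markers in the counts (4 tested) summed to 0.314 and 0.569 CPM in M2 and 2.27 and 1.42 CPM in M3. KDR alone was called higher (log2 fold change 3.32, SE 0.57, adjusted p 0.0186), a direction that turned with the other library assignment (log2 fold change -0.10, adjusted p 0.980). Of 5 myoepithelial contractile markers MYLK was higher (also with the other assignment, not with the M2 libraries summed), at 2.44 and 1.65 CPM in M2 and 12.5 and 13.5 CPM in M3 (log2 fold change 2.67, SE 0.47, adjusted p 0.0198). The part of such markers in the results above was not tested.

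Coding genes of 5 chromosome arms had the highest median log2 fold changes. The median was 0.54 over 402 genes of 3q, 0.42 over 656 of 1q, 0.41 over 375 of 2p, 0.32 over 466 of 15q and 0.25 over 572 of 17q. On 3q 87.8% of the genes were above M2. No other arm of the 41 with at least 20 genes had a median beyond 0.173 in size. The shift of 3q was alike in both M3 libraries (0.51 and 0.54, medians of log2 CPM minus the M2 mean) and in both M4 libraries (0.52 and 0.52). Those of 1q, 2p and 15q were larger in M3 replicate 2 (0.50, 0.50 and 0.40) than in replicate 1 (0.32, 0.29 and 0.21), and that of 17q was 0.26 against 0.12. M4 lay between 0.02 and 0.05 on 1q and 17q and between -0.10 and -0.01 on 2p and 15q. Without M3 replicate 2 the 17q median over all its genes was 0.15 and that of 15q 0.20. On 7p and 7q the M3 libraries parted, with 0.26 and 0.23 in replicate 1 and -0.08 and -0.05 in replicate 2. The 5 arms held 155 of the 503 genes called higher and 16 of the 191 called lower, so 6.27% of their genes were called higher against 3.00% on the other arms. They were chosen from this same contrast, and the shares are a description. ETV5 lies on 3q, LAMB3, S100A2, S100A16, RASAL2 and HSD17B7 on 1q, and TGFA on 2p. THBS1, ANXA2 and RASGRP1 lie on 15q, and ITGB4 and KRT14 on 17q. Other genes named above lie on these arms as well. Neither the log2 fold changes nor the counts of called list members above are relative to the arm.

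**Figure D5:**
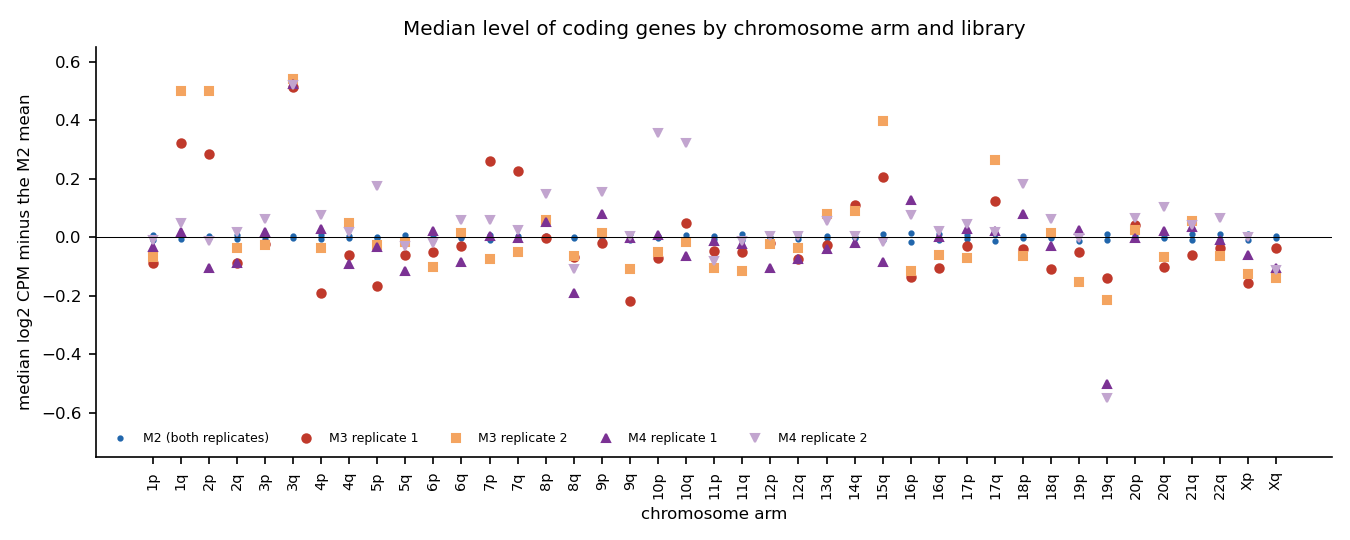
Median over coding genes with a mean of at least 1 CPM of log2 CPM minus the M2 mean (vertical axis), for each chromosome arm (horizontal axis) and each M2, M3 and M4 library. 3q lies above 0.5 in all M3 and M4 libraries, 1q, 2p and 15q are high in the M3 libraries only, 7p and 7q in M3 replicate 1 only, and 19q is low in M4.

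M4 shares with M3 its origin and its medium without EGF. Its comparison with M2 uses the same M2 libraries, so each comparison's own values are set side by side. The log2 fold changes over M2 were 2.76 in M3 and 2.35 in M4 for TGFA, 1.68 and 0.39 for ITGB4, 7.07 and 7.75 for BST2, and -3.61 and -5.73 for MUC1. For SPARC they were 3.34 and -0.82, and for MGMT -11.23 and -1.03. Of the 4343 genes of other or unlisted class tested, 71 (1.63%) were called.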

How the data were processed

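RNA was sequenced from 8 libraries, 2 for each of the lines M1 to M4, and the 2 M3 libraries were compared with the 2 M2 libraries. Per the labels and the study's methods, the authors trimmed reads with Trimmomatic, aligned them to hg19 (GRCh37) with STAR, checked them with Picard and counted genes of GENCODE 19 with RSEM (versions and use of strand not given in the sources used here). The deposited values are expected counts per gene, not normalised. Of the values, 12.78% were not whole, and all were rounded. Without stated use of strand, reads of a gene and an overlapping antisense gene cannot be told apart.

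Libraries held 69669945 to 107350288 counts. edgeR 4.0.16 in R 4.3.3 (TMM scaling, filterByExpr, robust quasi-likelihood fit over all 8 libraries) tested 18431 genes. Calls needed a Benjamini-Hochberg adjusted p under 0.05 and a log2 fold change above 1 in size. DESeq2 1.42.0, other scalings, filters, folds and pseudocounts, summed M2 libraries, another library assignment, a replicate block and leaving out each library were alternatives. Levels are CPM from these fits. The summed level of a list covers all its members found in the counts, tested or not. RPKM used exon lengths of GENCODE 44 lifted to GRCh37, which also gave gene classes and positions (94.7% of genes matched). Chromosome arms were split at approximate GRCh37 centromere positions entered by hand to the nearest Mb. Tables were handled in Python 3.11.15 (numpy 2.4.6, pandas 2.3.3), intervals came from scipy 1.17.1 and plots from matplotlib 3.10.9. The fit was tested on simulated data. There it called 26 of 100 genes with a true log2 fold change of 1 in size. It called 82 of 100 at 2 and 12 of 18231 unchanged genes, so in the simulation changes of size 1 were often missed. Each simulated gene had the same spread in all lines. In the data the coefficient of variation between replicates was 0.0580 in M2 and 0.307 in M3. The simulated shares therefore do not measure the error rate of this comparison.

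Named genes were the 10 largest called changes each way with at least 100 counts in each library of the higher line, up to 4 called members of each of 61 gene lists (or 2 by level where none was called), the 5 largest RPKM differences each way, and HRAS, EGFR, PDCD4 and cell type markers. Other genes, among them APOBEC3F, SERPINB1 and the zinc finger genes, were chosen after their values were seen. Members and lists were chosen with earlier results of these data known. A fold against libraries at 0 is a lower bound at 3 counts per library, and 95% intervals and such bounds cover counting error only.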

Additional observations from a re-analysis of the deposited data

Results flagged for a closer look

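Genes not classed as protein coding lie outside the comparison of coding genes. Of 4343 such genes tested with edgeR's quasi-likelihood test, 40 were called higher and 31 lower in M3 than in M2. Of the 4343, 726 are not listed in the annotation release used for gene classes, and 13 of those were called. The class of the unlisted genes is not known here. They may include coding genes, which the counts of coding genes above then leave out. SNHG14 had the values given above. LINC00973 was at 0.746 and 0.327 CPM in M2 and 10.3 and 12.7 CPM in M3 (log2 fold change 4.39, SE 0.42, adjusted p 0.00400). CYTOR was at 12 and 10.5 CPM in M2 and 30.4 and 22.6 CPM in M3 (log2 fold change 1.24, SE 0.25, adjusted p 0.0316). HOTAIR, a long RNA of the HOXC cluster, was at 7.45 and 7.04 CPM in M2 and 1.77 and 2.23 CPM in M3 (log2 fold change -1.86, SE 0.34, adjusted p 0.0239). MT-RNR2, the large mitochondrial ribosomal RNA, was at 5645 and 5617 CPM in M2 and 2721 and 2301 CPM in M3 (log2 fold change -1.17, SE 0.22, adjusted p 0.0264). These examples were chosen after their values were seen, and among them only SNHG14 and LINC00973 were called with the M2 libraries summed.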

How the results depend on the processing

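The 503 higher and 191 lower calls became 867 and 373 with DESeq2, 1121 and 470 with no filter on low counts, 282 and 122 at a log2 fold change above 2, 43 and 31 with the M2 libraries summed, and 131 and 66 with the other library assignment. The share of calls that were higher was 72.5%, against 58.1% with the M2 libraries summed and 66.5% with the other assignment. Leaving out each library gave 42 to 364 higher and 30 to 161 lower calls. Without M2 replicate 1 there were 49 and 31, without M2 replicate 2 there were 42 and 30, without M3 replicate 1 there were 364 and 161, and without M3 replicate 2 there were 335 and 113. These fits have fewer samples, and the lone library of a line is assumed to vary like the other lines. The rule without a test gave 1309 and 710 genes with a pseudocount of 0.001 CPM, 851 and 401 with 0.1 CPM, 813 and 386 without replicate 1, and 785 and 379 without replicate 2, against 460 and 215. Median-ratio scaling (506 and 190), a filter at 1 CPM (480 and 183), a fit of M2 and M3 only (626 and 232) and the adjusted p alone (692 and 252) stayed within 1.5 times. Except where the number of samples differs by construction, the cause was not tested.

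The deviations of the M2 and M3 samples from their line means had a correlation of -0.02 over genes. Since the M2 replicates were so close, this correlation cannot show whether replicate numbers pair the samples. That of M3 and M4 was 0.25, and those of the other 4 pairs of lines lay between -0.09 and 0.01. With the replicate number as a block 445 higher and 178 lower genes were called, and 575 of the 694 were kept.

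Of 116 called genes chosen by the naming rule, DESeq2 and median-ratio scaling called all 116, the block 106, the fit of M2 and M3 only 110, the other assignment 49 and the summed M2 libraries 29. Leaving out 1 library called 27 to 81 of them. Among all 694 called genes, 6 had the opposite sign with the other assignment. Of the 116, KDR alone did, at a log2 fold change of -0.10 (adjusted p 0.980).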
